A study of Mus musculus with 18 samples.

Results

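Of 12854 regions of open chromatin at the promoters of protein-coding genes in mouse retina, 2302 were called open in some ATAC-seq libraries but not in others. These variable promoters were chosen by the peak calls themselves. Peaks of all 18 deposited lists that shared 1 bp or more were joined into 99792 regions, and a region was kept when 2 to 17 lists called it and when the median of its peak summits lay between 1 kb upstream and 100 bp downstream of the start of a protein-coding transcript. Another 9828 promoter regions were called in all 18 lists and 724 in only 1 list. The number of lists therefore defines the group and is a description, not a result.

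ATAC-seq uses a transposase to insert sequencing adapters into accessible DNA, so that reads pile up over open chromatin. The study asked how age and a short rise of intraocular pressure (IOP) change the retina. Each of 6 groups held 3 libraries of bulk retina from wild-type (WT) mice, aged 3 months (3mo) or 18 months (18mo). At each age, 1 group came from eyes held at 30 mmHg for 1 hour (IOP), 1 from the opposite eyes of such animals (contralateral), and 1 from untreated animals. IOP and contralateral retinas were taken on day 2 per the labels, whereas the text of the study gives another day. The labels also mention dasatinib and vehicle injections after IOP but assign no library to either, so any exposure to them is unknown. A contralateral eye shared its animal with a pressurised eye and is not an untreated eye.

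A promoter is the stretch of DNA around a transcript start where general transcription factors and RNA polymerase II assemble. Promoters rich in CpG dinucleotides (CpG islands) are open in most cell types and often belong to housekeeping genes, whereas CpG-poor promoters tend to be open only in the cells that use the gene. Retina holds many more rods than any other cell type, so that a promoter open only in a rare neuron contributes few of the reads of a bulk library. In bulk tissue, fewer cells of a type and less open chromatin per cell cannot be told apart. A region that was not called may also have been open but under the threshold of the peak caller.

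The sequences below show the promoters on which the comparisons turn, as the mm10 reference gives them in the direction of the gene. Each is up to 120 bases of the called region outside annotated exons, nearest to its summit, and capitals mark a motif of the searched set described further on. Gm826 is shown as the promoter that separated the ages completely, Pdlim1 and Fabp7 as examples called more often at 3mo, Lrrc2 and Ccdc194 as promoters called after IOP, P2ry6 as a promoter not called after IOP at one age, and Pcdh17 as one of the strongest variable promoters. Opn1sw and Slc32a1, a CpG-poor and a CpG-rich promoter of genes used by rare retinal neurons, were added after the values were seen. The coordinates are chr2:160328343-160328462 (minus strand) for Gm826, chr19:40271617-40271658 (minus) for Pdlim1, chr10:57784711-57784830 (plus) for Fabp7, chr9:110951425-110951544 (plus) for Lrrc2, chr8:71526492-71526611 (minus) for Ccdc194, chr7:100965226-100965345 (minus) for P2ry6, chr14:84443418-84443537 (plus) for Pcdh17, chr6:29380514-29380626 (minus) for Opn1sw and chr2:158610724-158610766 (plus) for Slc32a1.
Gm826: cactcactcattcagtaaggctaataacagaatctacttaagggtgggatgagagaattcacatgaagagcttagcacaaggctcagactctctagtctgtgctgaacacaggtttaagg
Pdlim1: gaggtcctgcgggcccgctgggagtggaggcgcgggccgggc
Fabp7: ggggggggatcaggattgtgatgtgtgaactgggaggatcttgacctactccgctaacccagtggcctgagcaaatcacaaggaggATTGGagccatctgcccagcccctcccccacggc
Lrrc2: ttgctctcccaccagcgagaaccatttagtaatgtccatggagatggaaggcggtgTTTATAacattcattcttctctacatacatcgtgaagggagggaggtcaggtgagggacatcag
Ccdc194: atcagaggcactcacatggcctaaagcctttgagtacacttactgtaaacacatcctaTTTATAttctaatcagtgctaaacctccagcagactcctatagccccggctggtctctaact
P2ry6: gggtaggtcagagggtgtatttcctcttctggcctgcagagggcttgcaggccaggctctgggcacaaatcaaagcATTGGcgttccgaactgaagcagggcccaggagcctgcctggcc
Pcdh17: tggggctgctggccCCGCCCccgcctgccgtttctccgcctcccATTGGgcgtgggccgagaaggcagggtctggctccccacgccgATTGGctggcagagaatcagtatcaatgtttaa
Opn1sw: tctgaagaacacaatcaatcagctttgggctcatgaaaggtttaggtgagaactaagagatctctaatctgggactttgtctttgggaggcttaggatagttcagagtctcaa
Slc32a1: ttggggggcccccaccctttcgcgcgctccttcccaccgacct
The printed Gm826 and Opn1sw stretches held no CpG dinucleotide, whereas the Pcdh17 stretch held 8 and the 43 bases of Slc32a1 held 4. The summits of the Gm826, Ccdc194 and P2ry6 regions lay 909, 841 and 895 bp upstream of the start. The capitals in the Ccdc194 and P2ry6 stretches thus do not lie next to the start.

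Promoters made up a small part of the variable regions of the genome. The share of merged regions that lay at protein-coding promoters was 2.78% among regions called in 2 lists, 8.82% among those in 17 lists and 39.7% among those in all 18. The 2302 variable promoters were spread over every count of lists, with the fewest (98) at 11 lists and the most at both ends, 247 at 2 lists and 280 at 17 lists. A few libraries set both ends. Of the 280 promoters called in 17 lists, 101 (36.1%) were missing from 18mo IOP replicate 3 and 53 (18.9%) from 3mo untreated replicate 5. Of the 247 called in 2 lists, 91 (36.8%) were called by 3mo contralateral replicate 2.

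**Figure D1:**
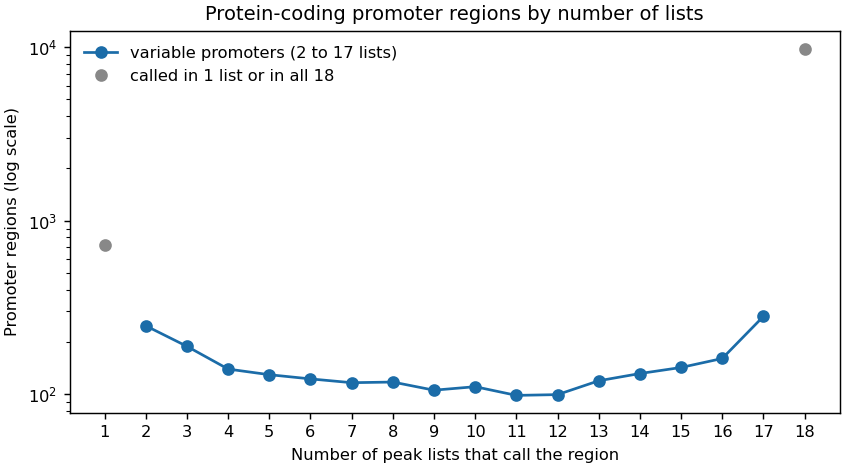
Number of protein-coding promoter regions (y axis, log scale) by the number of the 18 peak lists that called them (x axis). The blue points are the variable promoters, from 247 regions in 2 lists through a low of 98 in 11 lists to 280 in 17 lists, and the gray points are the 724 regions in 1 list and the 9828 in all 18.

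The lower limit of the rule fell within a gradual change, and the upper limit at a large step. The strength of a peak is given here as its percentile, that is, the rank of its −log10 q-value among all peaks of the same list, with 100 the strongest. The median percentile was 9.83 for promoters in 1 list, 13.7 for those in 2 lists, 42.3 for those in 17 lists and 88.3 for those in all 18. The median fold of the pileup over the local background was 3.94, 4.04, 5.77 and 11.5 in the same order. Near the upstream limit of the window, 88 regions had their summit within 100 bp inside and 79 within 100 bp outside, and near the downstream limit 580 lay inside and 283 outside.

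Variable promoters were poorer in CpG than promoters open in every library. The median GC content of the 200 bp around the summit was 61.5% for variable promoters and 67.0% for promoters in all 18 lists, and the median ratio of observed to expected CpG in 500 bp was 0.54 and 0.817. A window was called CpG-island-like when that ratio was above 0.6 and its GC content above 50%. By this measure 920 of 2302 variable promoters (40.0%) were CpG-island-like, against 84.9% of promoters in all 18 lists and 22.8% of those in 1 list. The share rose within the variable promoters as well, from 31.2% of the 703 called in 2 to 5 lists through 38.9% of the 886 called in 6 to 13 lists to 49.9% of the 713 called in 14 to 17 lists. Peak strength rose along the same grades, with median percentiles of 14.6, 22.4 and 36.3, so that composition, strength and number of lists moved together.

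**Figure D2:**
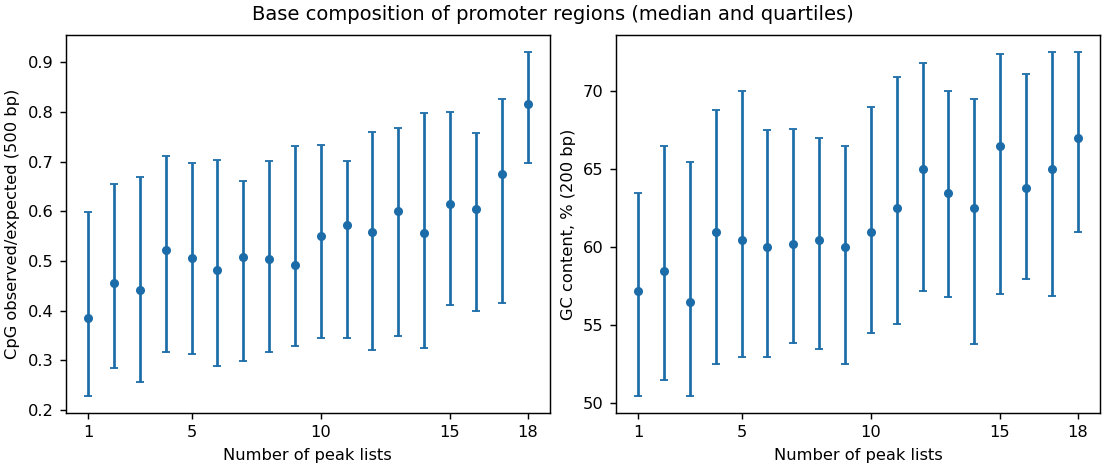
CpG observed over expected in 500 bp (left) and GC content in percent in 200 bp (right) around the median summit of promoter regions, by the number of peak lists that called them. Points are medians and bars span the quartiles over regions; the CpG ratio was 0.54 at the median over the variable promoters and 0.817 for promoters in all 18 lists.

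Variable promoters also lay less squarely on the transcript start. Their summits were within 200 bp of a start in 70.5% and more than 500 bp upstream in 17.6%, against 91.0% and 3.3% of promoters in all 18 lists. Their median width was 420 bp against 1070 bp. A bidirectional promoter serves genes on both strands, and 31 variable promoters (1.35%) held starts on both strands, against 8.77% of promoters in all 18 lists. Some variable promoters were second openings beside a constant one: 280 (12.2%) had a region called in all 18 lists within 1 kb, and 459 (19.9%) belonged to a gene with another promoter called in all 18 lists. Of the 2302 regions, 62 (2.69%) lay over more than 50% repeat-masked sequence, against 0.275% of those in all 18 lists. Among these were 15 regions at the very start of the assembled chromosome 9, between positions 3004508 and 3030233 and at 6 gene models including Gm10717 and Gm10718, all 15 repeat-masked. Near-identical copies share reads there, so the values of these gene models are uncertain.

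Short transcription factor motifs were counted in the same 200 bp on both strands. The searched letters were CCAAT (the NF-Y box), GGGCGG (the GC box bound by Sp1-type factors), TATAAA (the TATA box), TAATCC (Crx and Otx2, the photoreceptor and bipolar homeodomain factors), TAATTA (other homeodomain factors), CCGGAA (ETS factors), TGACGTCA (the cAMP response element), GCATGCGC (NRF1, a regulator of genes for mitochondrial proteins) and TGANTCA (AP-1), and the CTCF motif was searched by its consensus. Motifs of the same region can overlap, and a match is a description of the letters and not a bound site. The ETS letters were in 6.82% of variable promoters, in 25.9% of those in all 18 lists and in 21.3% of all promoter regions. The NRF1 letters were in 1.22%, 5.53% and 4.47%, the CCAAT letters in 21.5%, 34.6% and 31.5%, the GC box in 42.5%, 67.0% and 60.2%, and the cAMP response element in 1.48%, 3.65% and 3.11%.

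A second set of motifs leaned the other way. The Crx and Otx2 letters were in 6.65% of variable promoters, 3.67% of those in all 18 lists and 4.34% of all promoter regions. The shares were 1.65%, 0.621% and 0.926% for TAATTA, 4.04%, 2.23% and 2.8% for the TATA box, 4.13%, 2.33% and 2.78% for AP-1, and 2.3%, 0.936% and 1.17% for CTCF. Split by composition, the shares of this second set lay closer together. Among windows that were not CpG-island-like, the Crx and Otx2 letters were in 9.99% of 1382 variable promoters and 11.8% of 1480 promoters in all 18 lists, and the AP-1 letters in 5.28% and 4.86%. The ETS letters still differed after the split: they were in 9.13% of 920 variable and 27.8% of 8348 constant CpG-island-like promoters, although the median GC content of the variable ones was the higher (71.0% against 68.0%). The NRF1 letters were in 0.87% and 6.23% and the CCAAT letters in 15.2% and 33.8% of the same CpG-island-like sets, while the GC box was in 67.7% and 72.1%. Outside CpG-island-like windows the NRF1 letters were in 1.45% and 1.55%, the ETS letters in 5.28% and 14.9%, the CCAAT letters in 25.6% and 39.1% and the GC box in 25.7% and 38.4%.

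The variable promoters belonged to 2097 genes. For 1695 of these, 7.74% of 21899 protein-coding genes, no promoter was called in all 18 lists, while 402 had such a promoter elsewhere. Of all protein-coding genes, 10391 (47.4%) had a promoter in all 18 lists and 9425 (43.0%) had no called promoter. Ribosomal protein and complex I genes, which every cell uses, mostly had a constant promoter and never only a variable one. Rps14, with a promoter in all 18 lists, also held a variable region called in 3 lists. Of 76 cytosolic ribosomal protein genes 68 had a promoter in all 18 lists and 0 had only a variable one, and of 46 subunits of mitochondrial complex I these numbers were 43 and 0. At the other end, of 1144 olfactory receptor genes, which are used in the nose, 0 had a promoter in all 18 lists and 3 had a variable one.

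Genes of the less common retinal neurons held a larger share of variable promoters than rod genes did. Of 23 rod photoreceptor genes, 18 had a promoter in all 18 lists and 1 (Gngt1, the rod transducin gamma subunit) had only a variable one, called in 10 lists with its summit 910 bp upstream. For amacrine and horizontal cells, the inhibitory interneurons, 3 of 17 genes had a constant promoter and 8 (47.1%) only a variable one. Among the latter were Slc32a1, the vesicular GABA transporter, called in 16 lists, Gad1 and Gad2, which make GABA, and Calb1, a calcium buffer, called in 12 lists. For bipolar cells these numbers were 4 and 5 of 13, with Lhx4 called in 17 lists, Grik1 in 15 and Trpm1, the cation channel of ON bipolar cells, in 7. For cones they were 5 and 4 of 13. The variable cone promoters were Gnat2, the cone transducin alpha subunit, in 17 lists, Cnga3, a subunit of the cone cyclic nucleotide-gated channel, in 16, Opn1sw, the short-wavelength opsin, in 13, and Pde6h, the inhibitory subunit of the cone phosphodiesterase, in 6. For retinal ganglion cells, whose axons form the optic nerve, they were 3 and 4 of 14, with Rbpms called in 15 lists, Nefl in 6 and Pou4f2 in only 2. No promoter was called for 7 of the 14 ganglion cell genes. The same held for 4 rod, 3 cone, 4 bipolar and 2 amacrine and horizontal cell genes.

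Glial, vascular and channel genes were counted in the same way. Of 16 Müller glia genes, 6 had a constant and 5 only a variable promoter, among them Dkk3 in 16 lists, Apoe in 14 and Rlbp1, the retinaldehyde-binding protein, in 9. Of 15 endothelial and pericyte genes 11 had no called promoter and these numbers were 1 and 3, with Flt1 in 13 lists, Pdgfrb in 9 and Kcnj8 in 4. Of 16 microglia and complement genes, 14 had no called promoter, 1 had a constant one and 0 only a variable one. Potassium channel genes, many of which set the firing of neurons, had 31 of 94 with a constant and 34 (36.2%) with only a variable promoter, such as Kcna5, Kcns1 and Kcnt1, each called in 17 lists. These lists were small and were chosen with results of these data known, so their shares stand beside the 7.74% of all genes as a description.

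Markers of tissue next to the retina were looked at in the same way, as a check of the labelled tissue. Of 14 genes of pigment epithelium and melanocytes, 9 had no called promoter, 4 had a constant one and 1, Tyrp1, a pigment enzyme, was called in 6 lists. Of 16 lens and cornea genes, 10 had none, 1 had a constant one and 4 only a variable one: Cryab in 17 lists, Crybb3 in 12, Crybb1 in 5 and Bfsp2 in 3. Of 7 erythroid genes, 6 had none and 0 had a constant one. Crybb3 was called in 11 of 12 libraries of contralateral and IOP eyes and in 1 of 6 untreated libraries. Between the controls this was 5 of 6 contralateral against 1 of 6 untreated libraries (Fisher's exact test, p = 0.0801, adjusted p = 0.413). For the other 3 lens promoters these numbers were 6 and 5 (Cryab), 3 and 1 (Crybb1) and 3 and 0 (Bfsp2). Of 42 genes of inflammation, senescence and stress, 17 had a constant and 4 only a variable promoter. Among the latter, Cdkn2a, a gene of cell cycle arrest, and Fgf2 were called in 17 lists, while Ccl2, a monocyte chemokine, was called in 4 lists, of which 0 of 6 were at 3mo among the controls and 2 of 6 at 18mo (Fisher's exact test, p = 0.455).

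**Figure D3:**
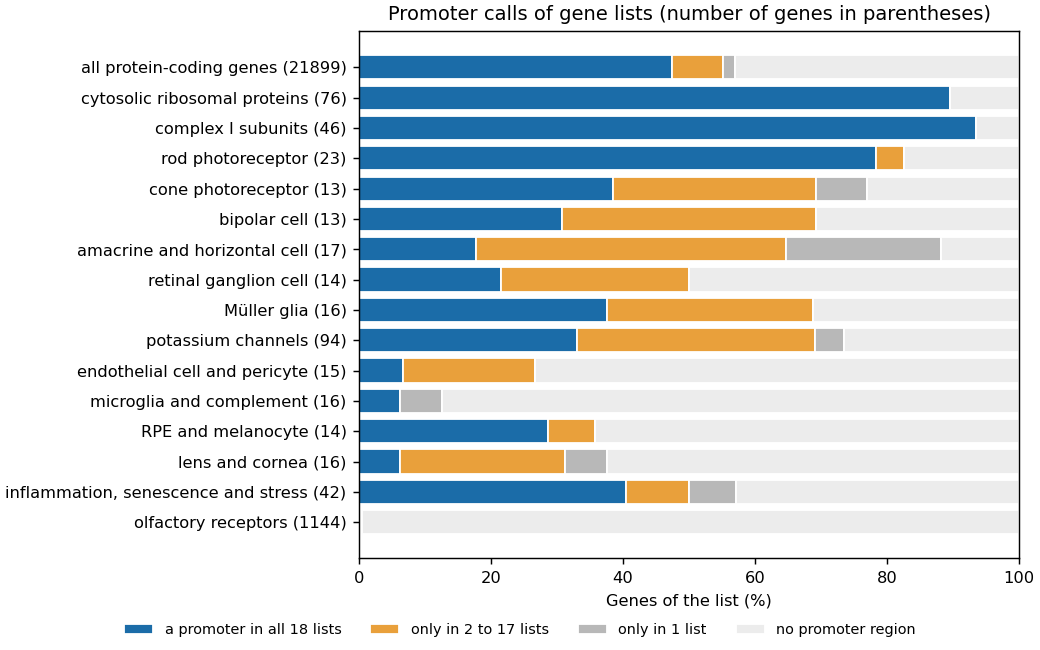
Share of the genes of each list (x axis, percent; number of genes in parentheses) with a promoter called in all 18 lists (blue), only in 2 to 17 lists (orange), only in 1 list (gray) or with no called promoter (light gray). Ribosomal and complex I genes had no orange part, rod genes 1 of 23, and amacrine and horizontal cell genes 8 of 17.

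The strongest variable promoters, apart from the repeat-masked gene models on chromosome 9, were Pcdh17, a cell adhesion protocadherin, and Zmat4, a zinc finger protein, both called in 17 lists. The median percentile was 67.6 for Pcdh17, with a range from 55.0 to 79.2, and 65.9 for Zmat4, with a range from 31.2 to 85.1. Both were missing only from 18mo IOP replicate 3. On chromosome 9, the region of Gm10717 at chr9:3024368-3024592 had the highest median percentile of all, 89.0, in 12 lists, and another at chr9:3025430-3025883 had 68.5 in 17 lists. The region of Gm10718 had 66.2 in 13 lists.

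Libraries differed widely in how many of the 2302 variable promoters they called. At 3mo, the contralateral libraries called 952, 1875 and 1036, the IOP libraries 1504, 1235 and 1237, and the untreated libraries 924, 806 and 1531. At 18mo, the contralateral libraries called 1656, 1306 and 1566, the IOP libraries 1329, 1266 and 590, and the untreated libraries 1036, 951 and 1081. The means were 1288 ± 510.4, 1325 ± 154.7 and 1087 ± 389 at 3mo and 1509 ± 181.8, 1062 ± 409.7 and 1023 ± 66.02 at 18mo for contralateral, IOP and untreated (SD, n = 3 each). Within an age the groups overlapped, except that the 18mo contralateral libraries all lay above the 18mo untreated ones. The highest and the lowest library were also those with the most and the fewest peaks in all: 3mo contralateral replicate 2 with 66160 and 18mo IOP replicate 3 with 36011. The number of reads behind each list was not used here, so depth and accessibility cannot be told apart.

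Untreated libraries called a less CpG-rich part of the variable set. Of the variable promoters that a library called, 38.8% to 41.8% were CpG-island-like in the 6 untreated libraries, 44.7% to 49.3% in the 6 contralateral and 43.3% to 49.0% in the 6 IOP libraries. The untreated range did not overlap with the other ranges at either age. The median GC content of the called promoters was 61.5% to 62.0% in untreated, 63.0% to 64.0% in contralateral and 63.0% to 64.5% in IOP libraries. Per 100 regions called in at least 2 lists, untreated libraries called 1.99 to 2.83 variable promoters, contralateral libraries 2.54 to 3.23 and IOP libraries 1.72 to 3.23, so that the ranges overlapped. The lists themselves also differed: the shortest peak was 79 to 89 bp in untreated libraries and 114 to 157 bp in the others. It was 114 to 122 bp in 3mo contralateral replicate 2, 18mo contralateral replicates 1 and 3, and replicate 1 of both IOP groups. In the remaining contralateral and IOP libraries it was 148 to 157 bp. The former called 1329 to 1875 variable promoters and the latter 590 to 1306, a difference whose cause was not tested. Treatment of the animal and preparation of the library cannot be told apart here.

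**Figure D4:**
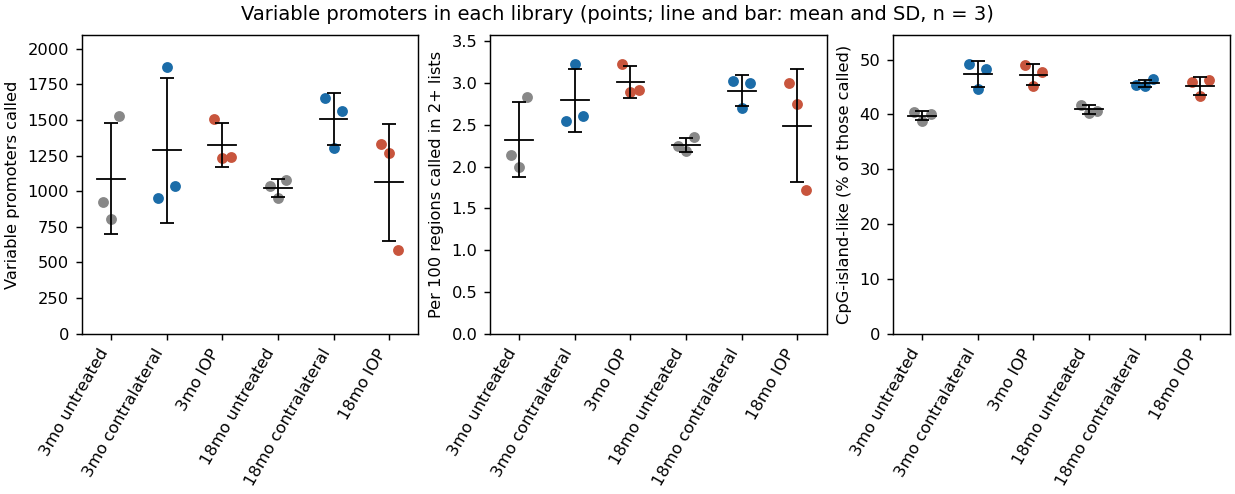
Variable promoters called in each library (left), the same per 100 regions called in at least 2 lists (middle), and the percentage of them that were CpG-island-like (right), by group. Points are libraries, the line and bar are the mean and SD (n = 3); the untreated libraries lie at 38.8% to 41.8% in the right panel, below all contralateral and IOP libraries.

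The 2 kinds of control were compared directly by Fisher's exact test of called against not called, 6 untreated against 6 contralateral libraries, with Benjamini-Hochberg adjustment over all 9868 regions where the exact p could fall under 0.05. At an unadjusted p under 0.05, 61 of 504 variable promoters tested (12.1%) were called more often in contralateral libraries and 17 (3.37%) more often in untreated ones. Over all regions tested the shares were 5.55% and 5.89%. After adjustment 0 passed, as over all regions (0%), and the smallest adjusted p was 0.0872. The call depended on list length and on the rule for a call, but shares over all regions were not computed under such settings. The counts that follow are therefore no result about variable promoters alone. When every list was cut to the same number of top peaks, 35 variable promoters passed after adjustment, with 103 more often called in contralateral and 23 in untreated libraries at the unadjusted threshold. When a call required peaks over at least 50% of the merged region, 1029 passed, and 1018 were called more often in contralateral libraries, which had the wider peaks (median 264 to 393 bp per library, against 161 to 192 bp in untreated libraries). The counts also moved without single libraries. Leaving out a library lets less complete splits pass under 0.05, and no count fell below the full one. A higher count is therefore no measure of that library's influence. The contralateral count was 113 and 98 without 3mo contralateral replicates 1 and 3, 95 without 18mo contralateral replicate 2 and 119 without 3mo untreated replicate 6. The untreated count was 36 without 3mo contralateral replicate 2, 27 without 18mo contralateral replicate 1 and again without replicate 2, and 32 without 3mo untreated replicate 5. The 61 promoters had a median GC content of 67.0% and 36 were CpG-island-like, while the 17 had a median of 52.0% and 3 were CpG-island-like. The 504 tested had a median of 61.5%.

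Only 3 variable promoters were called in 6 of 6 untreated and 0 of 6 contralateral libraries, and 4 the other way around (exact p = 0.00216, adjusted p = 0.0872 for each). One of the 3 lay 905 bp upstream of Idh1, the cytosolic isocitrate dehydrogenase, 430 bp from a region called in all 18 lists. Its percentiles were 32.9, 38.1 and 32.5 in the 3mo and 36.2, 37.6 and 42.7 in the 18mo untreated libraries, and it was called in none of the 12 other libraries. The Dqx1 promoter showed the same pattern at 5.34 to 49.6, but with lists of equal length its difference fell from 6 to 3 libraries. The third was a Gm10717 region in the chromosome 9 repeats. A stronger Gm10717 region nearby, with a median percentile of 89.0, was called in all 12 contralateral and IOP libraries and in 0 of 6 untreated ones. The untreated-only regions of Idh1, Gm10717 and Dqx1 were 132, 128 and 155 bp wide. The shortest listed peak was 152 bp in 3mo contralateral replicates 1 and 3 and 149 bp in 18mo contralateral replicate 2. These lists thus held no peak as short as the Idh1 and Gm10717 regions, and whether peak length set the split was not tested. Pgap2, which acts in the maturation of GPI anchors, and Ltbp1, which binds latent TGF-beta, were called in 6 of 6 contralateral and 0 of 6 untreated libraries, and their percentiles averaged 29.2 ± 7.35 and 25.2 ± 16.3 there (SD, n = 6). The fourth such promoter was Thbs1, the matrix protein thrombospondin 1, named after its values were seen, at a median percentile of 12.5 in 9 lists. With lists of equal length, Pgap2 and Ltbp1 were each called in only 2 more contralateral than untreated libraries. The Pgap2 region lay only 80 bp from a region called in all 18 lists, and the gene had another promoter called in all 18 lists.

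For age, the 6 control libraries at 18mo were compared with the 6 at 3mo. Few variable promoters separated the ages. At an unadjusted p under 0.05 (Fisher's exact test), 6 of 504 tested (1.19%) favored 18mo and 0 favored 3mo, against 3.19% and 0.385% of all regions tested. After Benjamini-Hochberg adjustment 0 passed, as over all regions (0%), with a smallest adjusted p of 0.345. The number of calling libraries differed by at most 1 between the ages for 1638 variable promoters (71.2%). The rule bounds this difference in part, since the 280 promoters in 17 lists could not differ by more than 1. The number was higher at 18mo for 978, equal for 631 and lower for 693. It was at least 4 higher at 18mo for 26 and at least 4 lower for 13. These counts are a description, as no share over all regions was computed for them. With lists of equal length the unadjusted counts turned to 2 at 18mo and 13 at 3mo, with no share over all regions computed. Leaving out a library again lets less complete splits pass, so the counts that follow do not measure a library's influence. Without 3mo contralateral replicate 2, which called the most variable promoters, 19 were called more often at 18mo. It was 18 without 3mo untreated replicate 6 and 10 without 18mo contralateral replicate 2. The count at 3mo was 7 without 3mo contralateral replicate 1 and 1 without replicate 3, 2 and 5 without 3mo untreated replicates 4 and 5, 5 and 3 without 18mo contralateral replicates 1 and 3, and 2 and 1 without 18mo untreated replicates 4 and 5.

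Gm826, a gene model, was the only variable promoter called in 6 of 6 control libraries at 18mo and 0 of 6 at 3mo (exact p = 0.00216, adjusted p = 0.345). Its summit lay 909 bp upstream of the start, at a GC content of 45.0%. The percentiles were 42.5, 42.2 and 20.0 in the contralateral and 0.16, 16.0 and 7.66 in the untreated libraries at 18mo, and 1 of 3 IOP libraries at 18mo called it at 32.1. With lists of equal length its difference shrank from 6 to 2 libraries. The other 5 were Zfp708, a zinc finger gene, and Vangl1, a planar cell polarity protein, each called in 6 of 6 libraries at 18mo and 1 of 6 at 3mo, and Ahrr, the repressor of the aryl hydrocarbon receptor, Otp, a homeodomain factor, and Trim43c, each called in 5 of 6 and 0 of 6. Each of these 5 had an exact p of 0.0152 and an adjusted p of 0.424, and they were named after their values were seen.

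No variable promoter was called in every 3mo and no 18mo control. The 5 with the smallest p in that direction were each called in 5 of 6 control libraries at 3mo and 1 of 6 at 18mo (exact p = 0.0801, adjusted p = 1.0). Pdlim1, a cytoskeletal adaptor protein, was called at percentiles of 53.8 and 47.1 in 2 contralateral and 67.4, 52.5 and 65.4 in 3 untreated libraries at 3mo, and at 37.4 in 1 untreated library at 18mo. All 3 IOP libraries at 3mo also called it, at 54.5, 38.9 and 32.6, and 0 of 6 contralateral and IOP libraries at 18mo did. Fabp7, the brain-type fatty acid-binding protein of glia, was called at 20.2 and 43.2 in contralateral and at 8.82, 44.4 and 65.4 in untreated libraries at 3mo, and at 36.0 in 1 untreated library at 18mo. Olfm3, a secreted olfactomedin, Zfp72 and Spata4 followed at mean percentiles of 30.4 ± 19.2, 23.0 ± 22.7 and 10.7 ± 3.97 over the 5 calling libraries at 3mo (SD). With lists of equal length, the 3mo libraries led by 4 for Pdlim1, 2 for Fabp7 and Olfm3, 1 for Zfp72 and 0 for Spata4.

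Within 1 kind of control, 3 libraries against 3 could not reach an exact p below 0.1, so the counts were not tested. Among contralateral controls, 17 of 302 variable promoters called in exactly 3 of the 6 libraries were called only at 18mo (5.63%, against 12.2% of all such regions) and 8 only at 3mo (2.65%, against 1.3%). Among untreated controls, 17 of 240 were called only at 18mo (7.08%, against 12.5%) and 23 only at 3mo (9.58%, against 10.9%). The 18mo promoters were thus the more numerous among contralateral and the 3mo promoters among untreated libraries, a difference that was not tested.

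For IOP, the 6 IOP libraries were compared with the 6 contralateral ones by an exact test stratified by age. At an unadjusted p under 0.05, 3 of 280 variable promoters tested (1.07%) favored IOP and 3 (1.07%) favored the contralateral side, against 1.62% and 3.43% of 5572 regions tested. After adjustment 0 passed, as over all regions (0%), with a smallest adjusted p of 0.397. With lists of equal length the unadjusted counts were 14 and 0, with no share over all regions computed. The counts without single libraries do not measure a library's influence here either, since less complete splits then pass. Without 3mo contralateral replicate 2, 8 were called more often. Those called less often numbered 17 and 14 without 3mo contralateral replicates 1 and 3, 11, 6 and 9 without the 3mo IOP replicates, 5, 7 and 9 without the 18mo contralateral replicates, and 7 and 10 without 18mo IOP replicates 1 and 2.

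Lrrc2, a leucine-rich repeat protein, was the only variable promoter called in all 6 IOP libraries and none of the 6 contralateral ones (exact stratified p = 0.005, adjusted p = 0.397). Its percentiles were 47.7, 37.3 and 60.5 at 3mo and 68.4, 69.3 and 62.7 at 18mo, with a mean of 57.7 ± 12.6 (SD, n = 6), and 0 of 6 untreated libraries called it. The groups did not overlap, and the same 6 libraries against 0 held with lists of equal length and at a stricter q-value. Under the coverage rule for calls, used above for the kinds of control, the IOP libraries led by 5 instead of 6. The summit lay 39 bp downstream of the transcript start, and a region called in all 18 lists, outside the promoter window of Lrrc2, lay 603 bp away. Its median fold over background was only 3.83. Ccdc194 was called in every IOP library and 1 of 6 contralateral ones (exact p = 0.02, adjusted p = 0.397), at 47.9, 51.1 and 63.3 at 3mo and 64.5, 70.0 and 66.9 at 18mo, but 5 of 6 untreated libraries also called it, at 31.8 to 47.8. H2-T24, a class I-like gene of the major histocompatibility complex, was called by 5 of 6 libraries after IOP and 0 of 6 contralateral ones (exact p = 0.02, adjusted p = 0.397). Among the 3 called less often were Gm10037 and Glipr1l1, each in 0 of 6 IOP and 5 of 6 contralateral libraries with the same p-values.

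At 3mo, 5 of 277 variable promoters called in exactly 3 of the 6 libraries were gained, that is, called in every IOP library and no contralateral one (1.81%, against 2.91% of all such regions), and 6 were lost, the reverse (2.17%, against 3.22%). Among the gained were Ccdc194, Lrrc2, Pdyn, the opioid peptide precursor, and Fcgrt, the neonatal Fc receptor. Among the lost were Spata20, Far2, a fatty acyl reductase, Nhlh2, a neuronal basic helix-loop-helix factor, and Trpm1. Spata20 was called at 8.03, 42.2 and 22.5 and Far2 at 12.5, 43.2 and 5.78 in the 3mo contralateral libraries, and both were also called in contralateral and IOP libraries at 18mo. Such counts were not tested, since an exact test of 3 against 3 cannot go below p = 0.1. Leaving out a library loosens the rule: without 3mo contralateral replicate 2 the gained promoters numbered 69, and without 3mo contralateral replicates 1 and 3 in turn the lost ones numbered 39 and 32. Without each 3mo IOP library in turn, 16 to 18 were gained and 13 to 22 lost.

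At 18mo, 7 of 282 variable promoters were gained (2.48%, against 2.83% of all such regions) and 58 lost (20.6%, against 26.4%). Losses outnumbered gains among variable promoters and among all open regions, and the balance among variable promoters moved with list length. The 18mo IOP libraries held 36011 to 48723 peaks and the 18mo contralateral libraries 51166 to 60755. With lists of equal length 37 variable promoters were gained and 13 lost, and the shares over all regions were not computed. Without 18mo IOP replicate 3, the shortest list, 21 were gained and 62 lost. Without 18mo IOP replicates 1 and 2 in turn 149 and 120 were lost, and without 18mo contralateral replicates 2 and 3 in turn 143 and 90 were lost and 13 gained each time. Without 18mo IOP replicate 1, 12 were gained.

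Among the lost promoters with the highest percentiles, P2ry6, a receptor for extracellular UDP, was called in 15 of 18 libraries and in 0 of 3 IOP libraries at 18mo. The percentiles were 52.0, 57.9 and 55.2 in the 18mo contralateral libraries, 45.7, 48.7 and 41.4 in the 18mo untreated libraries, and 24.1 to 60.1 in the 9 libraries at 3mo, IOP included. Gm10037 was called in 0 of 6 IOP libraries and at 56.9, 35.4 and 49.4 in the 18mo contralateral ones. Tes, a focal adhesion protein, was called at 49.9, 37.5 and 41.4 in the 18mo contralateral libraries and at 56.8, 33.6 and 11.2 in the IOP libraries at 3mo, but in 2 of 3 contralateral libraries at 3mo (50.7 and 1.49) and in 0 of 3 untreated libraries at 18mo. The gained ones were Lrrc2, Gm9747, H2-T24, Aox1, Smim24, Lrrc66 and Cd24a, a cell surface sialoglycoprotein. Gm9747 was called at 33.9, 55.8 and 42.6 in the 3 IOP libraries at 18mo and in none of the other 15. H2-T24 was called at 33.9, 55.9 and 30.5 at 18mo and in 2 of 3 IOP libraries at 3mo, at 14.0 and 32.4. Lrrc2 was gained at both ages, 0 were lost at both, and 0 were gained at one age and lost at the other.

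**Figure D5:**
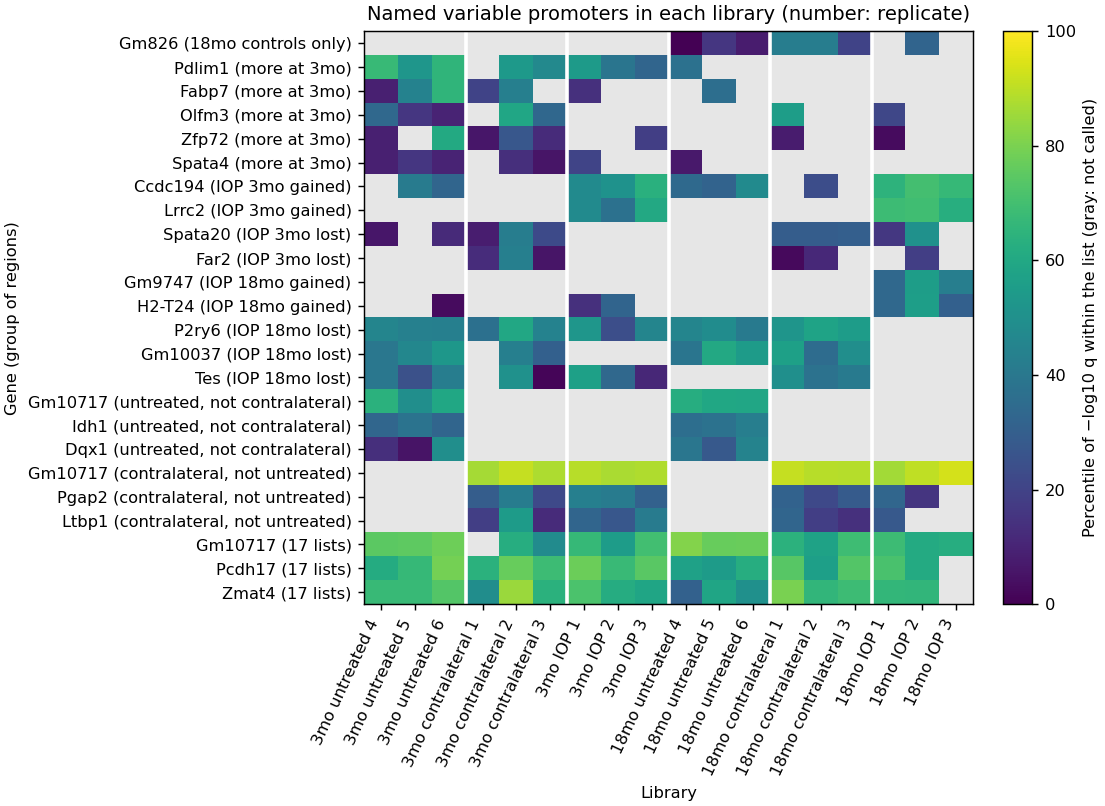
Percentile of −log10 q within each list (color) for the named variable promoters (rows) in the 18 libraries (columns, grouped by age and treatment), with gray where a library did not call the region. Lrrc2 is colored only in the 6 IOP columns (37.3 to 69.3), Gm826 in all 6 control columns at 18mo, and the P2ry6 row is gray only in the 3 IOP columns at 18mo.

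For the cell type lists, few promoters could be tested. In the rod, cone, ganglion cell, bipolar, amacrine and horizontal, Müller glia and vascular lists, 0 variable promoters had an unadjusted p under 0.05 for age (Fisher's exact test) or for IOP (stratified exact test), of 14 and 10 tested over these lists. Over all regions tested, 3.19% and 0.385% were past that threshold for age and 1.62% and 3.43% for IOP, so that with so few promoters a count of 0 is no result about the lists. Among single genes, the Trpm1 promoter was called in 5 of 6 control libraries at 3mo and 2 of 6 at 18mo, and Slc1a3, the glutamate transporter of Müller glia, likewise (exact p = 0.242 each). Trpm1 was also called in 4 of 6 contralateral and 0 of 6 IOP libraries (exact stratified p = 0.05). That p is the lowest its 4 calls allow, so Trpm1 was not among the promoters tested for IOP. Opn1sw was called in 5 of 6 at 3mo and 3 of 6 at 18mo (exact p = 0.545). Its percentiles ran from 0.277 to 64.5, with both extremes in libraries of contralateral and IOP eyes. Between the kinds of control, 2 of the 14 promoters tested in these lists had an unadjusted p under 0.05, beside 5.55% (contralateral) and 5.89% (untreated) of all regions tested. Grk1, the rod opsin kinase, was called in 5 of 6 contralateral and 0 of 6 untreated libraries at a site 971 bp upstream. Otx2 was called in 0 of 6 and 5 of 6 at a site 612 bp upstream (exact p = 0.0152 each). Both genes had another promoter called in all 18 lists. A further variable Otx2 site, in 17 lists, was called in 6 of 6 libraries of both kinds of control.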

How the data were processed

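Each of the 18 libraries had 1 deposited peak list, made by the authors with MACS2 at a q-value threshold of 0.05 (the largest listed q-value was 0.0499), without pooling of replicates. Per the labels, reads were aligned to mm10 with STAR 2.7.8a, and bedtools 2.29.2, HOMER and edgeR were also named. Trimming, removal of duplicates, mitochondrial reads and problematic regions, and any shift for the transposase were not given in the sources used here. The extraction text of the labels describes crosslinking and sonication beside library amplification, whereas tagmentation of fresh nuclei is given in the study's methods. The titles name ATAC-seq, and the lists were read as such. The deposited score, written by the authors' peak caller, is the −log10 q-value times 10, cut to a whole number. The deposited fold is the authors' ratio of reads piled up at a summit over the local background. The −log10 p and −log10 q-values at the summit were also made by the authors. They were ranked only within a list.

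Any overlap of a listed peak with a region counted as a call by that library. Transcript starts came from the basic GENCODE M21 set (41487 protein-coding starts), and sequence and repeat masking from the GRCm38 reference of RefSeq, the same build as mm10. Fisher's exact test (age, kind of control) and an exact conditional test stratified by age (IOP), both two-sided, were run on called against not called over all regions in at least 2 lists, with Benjamini-Hochberg adjustment where the exact p could fall under 0.05. Libraries were the replicates. The labels do not tie IOP to contralateral libraries by animal, and p-values measure the spread between these libraries. The lists hold no read depth, so no counting interval was given. The tests were checked on simulated calls. Variable promoters and gene lists were chosen with earlier results of these data known. Named promoters were those with a complete split between the compared libraries, or with the smallest p, ordered by percentile, those with the highest median percentile, and up to 4 per gene list. Others are named as chosen after their values were seen, as are those cited only for the size of their count. Alternatives were a stricter q-value, lists of equal length, a coverage rule for calls, a wider window, other transcript sets, strata and each library left out. Some named promoters are not reported here. Python 3.11.15, pandas 2.3.3 and scipy 1.17.1 were used.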

Additional observations from a re-analysis of the deposited data

How the results depend on the processing

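The number of variable promoters was 2302 as reported, 5680 when a call required peaks over 50% of the region and 5714 with a promoter window of 2.5 kb on either side. With lists of equal length (36011 peaks each), 2 were called more often at 18mo and 13 at 3mo, 14 more often and 0 less often after IOP, 17 gained at 3mo, 37 gained and 13 lost at 18mo, and 103 more often in contralateral than untreated libraries. By kind of control, 35 passed adjustment in either direction. With the 50% rule, 8 were called more often and 7 less often after IOP, 12 were gained and 13 lost at 3mo, 15 were gained at 18mo, 11 were called more often in untreated and 1018 in contralateral libraries, and 1029 passed adjustment. With the wider window, the age counts were 27 (18mo) and 1 (3mo), the IOP counts 6 and 13, the gains and losses 12 and 13 at 3mo and 17 and 151 at 18mo, and the counts by kind of control 84 (untreated) and 127 (contralateral). Within contralateral controls alone, 17 were called only at 18mo and 8 only at 3mo, and within untreated controls 17 and 23. With strata for kind of control and shortest peak (under 130 bp or not), an alternative chosen after seeing the data, 4 were called more often at 3mo. A comprehensive transcript set, also added later, gave 2698 variable promoters. Shares over all regions were not computed under these other settings, so the counts have no background beside them.

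Without single libraries, the counts ranged from 6 to 19 (18mo) and 0 to 7 (3mo) for age, 3 to 8 and 3 to 17 for IOP, 5 to 69 gained and 6 to 39 lost at 3mo, 9 to 21 gained and 62 to 149 lost at 18mo, and 18 to 36 (untreated) and 62 to 119 (contralateral) for kind of control, with 0 past adjustment in each. These lower ends were never below the counts with all libraries, since leaving out a library lets less complete splits pass. With age and replicate number as a replicate block, 1 was called more often and 0 less often after IOP, and 0 passed adjustment. The paired numbers were not known to mark animals. Same-numbered libraries correlated at r = -0.09 to 0.097 over variable promoters, and differently numbered ones of the same age at -0.152 to 0.144. With 3 libraries per group, these values cannot show whether the numbers mark animals. The numbers were not treated as pairs in the main test. Of 103 counts recomputed under other settings, 67 stayed within 1.5 times, and the cause of the other changes was not tested. For the named promoters past the unadjusted threshold, 24 differences were recomputed, of which 17 stayed past it and 7 fell short.

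A call records only that a peak passed a threshold in a list whose read depth was not used here, and 3 libraries per group limit every comparison.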
